A study of Mus musculus with 18 samples.

Results

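A set of 7 abundant noncoding RNA genes was followed through RNA-Seq of ED1SQ4 cells, which are a lung cancer line of the mouse. They are *Rn7sk* (7SK RNA), *Rn7s1* and *Rn7s2* (7SL RNA), *Gm26917* and *Gm42418* (annotated long noncoding RNAs that lie in a ribosomal RNA-like locus), *Malat1* and *Neat1*. The 7 were selected on their measured counts and differences in these libraries from the 55450 genes of the count table, and their rows were found by gene symbol. Each symbol matched 1 row. Because the choice used the counts, levels and differences are described here and were not tested.

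ED1SQ4 cells were cultured with vehicle or with 0.5 μM CYC065, an inhibitor of CDK2 and CDK9, for 72 hours. For each treatment, unsorted cells, sorted diploid (2N) cells and sorted polyploid (4N) cells were sequenced, which gave 6 conditions with 3 deposited columns each. Cells for sorting were stained with a DNA dye for 1 hour, washed and separated by DNA content. The paper calls the 2N cells diploid and the 4N cells polyploid. DNA content alone does not separate polyploid cells from 2N cells that have copied their DNA. Ploidy and cell cycle phase therefore cannot be told apart in 4N versus 2N differences. CYC065 is the only agent that distinguishes the treatments, and all 6 conditions come from the 1 cell line. Whether unsorted cells were stained is not stated, and sorting cannot be told apart from the handling that goes with it. Total RNA was depleted of ribosomal RNA by the authors with target-specific oligonucleotides, so a ribosomal RNA level is what remained after depletion.

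The 3 columns of a condition are titled replicates by the submitters but carry 1 library name with part numbers. Over genes with whole counts, they differed by a chi-square per degree of freedom of 0.991 to 1.02, against 14.5 to 374 between conditions. Over genes with fractional counts, which include *Rn7sk*, *Rn7s1*, *Rn7s2* and *Neat1*, the columns of a condition differed by 4.35 to 7.6. On the shared library name and the whole counts, the 3 columns were summed and counted as 1 library. No test, standard error or P value was therefore available between conditions. The 6 libraries held 54750203 to 62795507 counts. Counting error is given as a 95% interval and does not cover variation between cultures. In bulk RNA, fewer cells of a type and less RNA per cell cannot be told apart. Of 7 lung epithelial markers, the sum was 25 to 83 counts per library, and *Nkx2-1*, which defines the lung lineage, was at 0 in all 6. The mesenchymal markers *Vim*, *Col1a1* and *Pdgfra* summed to 6633 to 9363 CPM (counts scaled to a common library size). The epithelial markers of the labelled lung cancer line were thus at or near 0 while mesenchymal ones were abundant. The endothelial markers *Pecam1* and *Cdh5* summed to 29 to 109 counts. Comparisons below reuse the same 6 libraries and are not independent of each other.

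The RNAs differ in how they are made and what they do. 7SK and 7SL RNA are short structured transcripts of RNA polymerase III. 7SK RNA forms a particle with Larp7 and the capping enzyme Mepce, and through Hexim proteins it holds P-TEFb, the complex of CDK9 and cyclin T that releases paused RNA polymerase II, in an inactive state. 7SL RNA is the scaffold of the signal recognition particle (SRP), which brings ribosomes that make secreted and membrane proteins to the endoplasmic reticulum. Ribosomal RNA is made by RNA polymerase I. *Malat1* and *Neat1* are long nuclear transcripts of RNA polymerase II. Malat1 RNA is found in nuclear speckles, and Neat1 RNA is the architectural core of paraspeckles.

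The sequences below come from the GENCODE M21 transcripts of mm10 and are written 5′ to 3′ with T for U. How the 7SL counts can be read depends on the identity of its genes. *Rn7s1* (chr12:69159295-69159594, plus strand) and *Rn7s2* (chr12:69361182-69361481, minus strand) are both annotated as misc_RNA genes with 1 exon, and their 300-base transcripts had 0 differences. All 50-base stretches of either gene (100%) also occur in other genes. A read from one gene cannot be told from a read of the other, so the levels below are those of the sum of the pair.

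The first 300 of the 331 bases of 7SK RNA are shown because the 5′ part binds Hexim. *Rn7sk* (chr9:78175303-78175633, minus strand) is a misc_RNA gene with 1 exon. Capitals mark GATC, read on the transcript strand, at positions 13, 42 and 64:
Rn7sk: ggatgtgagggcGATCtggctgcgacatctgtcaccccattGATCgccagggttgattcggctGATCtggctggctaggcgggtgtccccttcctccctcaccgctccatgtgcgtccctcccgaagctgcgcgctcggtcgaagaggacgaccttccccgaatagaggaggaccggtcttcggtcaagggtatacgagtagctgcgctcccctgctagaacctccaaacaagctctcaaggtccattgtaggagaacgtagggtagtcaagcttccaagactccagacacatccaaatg
GATC occurs at least once in the first 300 bases of 58.3% of 131058 transcripts of at least 300 bases, and at least 3 times in 6.33%. Of the 50-base stretches of *Rn7sk*, 68.1% occur in 7 other genes. Those 7 copies together held 134 to 215 counts per library, 0.0280 to 0.0401% of the family.

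The 3′ ends of *Malat1* (chr19:5795690-5802672, minus strand) and *Neat1* (chr19:5824708-5845478, minus strand) are shown because they share an element known to protect *Malat1* and the long form of *Neat1*, whose ends carry no poly(A) tail, by forming a triple helix. Both are annotated as lincRNA genes, are exonic over 6983 and 20771 bases and lie 22035 bases apart. Capitals mark the U-rich stretches TTTTTCTTTT or TTTTGCTTTT and the A-rich stretch AAAGCAAAA, searched on the transcript strand with the U-rich stretch within 120 bases before the A-rich one:
Malat1: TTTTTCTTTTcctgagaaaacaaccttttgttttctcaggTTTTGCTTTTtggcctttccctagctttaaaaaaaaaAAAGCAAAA
Neat1: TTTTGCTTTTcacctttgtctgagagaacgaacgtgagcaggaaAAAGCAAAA
The stretch covers bases 6606 to 6691 of *Malat1*, 292 bases before the annotated end, and bases 20719 to 20771 of *Neat1*, at its end. The match is a description of the letters. It was found in 12 of the 131058 transcripts (0.00916%), from 8 genes. The other 6 genes were *Ahdc1*, *Fzd2*, *Meis2*, *Retreg3*, *Tmtc2* and *Tns3*, named after the search.

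The 7 RNAs took up a large and unequal part of the libraries. Together they held 11.9% of all counts in vehicle unsorted, 17.6% in CYC065 unsorted, 6.45% and 4.61% in vehicle-treated 2N and 4N cells, and 11.9% and 10.7% in their CYC065-treated counterparts. The CYC065 library held more than the vehicle library of the same kind each time, and sorted vehicle cells held the least. *Gm26917* and *Gm42418*, whose level also depends on ribosomal RNA depletion, weighed heavily in this order. Summed, they held 8.74% in vehicle unsorted cells but 2.62% and 1.68% in vehicle 2N and 4N cells. *Rn7sk* and *Malat1* held their lowest shares in vehicle unsorted cells (0.616% and 0.273%), while the 7SL sum and *Neat1* held theirs in vehicle 4N cells. *Gm26917* ranked first of all genes in all 6 libraries. The abundant protein-coding genes gave a sense of scale, as *Fn1*, the fibronectin gene, held 0.694 to 1.03% and *Actb*, the β-actin gene, 0.296 to 1.23%. *Rn7sk*, *Rn7s1* and *Rn7s2* made up 99.9% of the counts of misc_RNA genes in each library. *Gm26917*, *Gm42418*, *Malat1* and *Neat1* made up 91.7 to 97.8% of the counts of lincRNA genes.

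**Figure D1:**
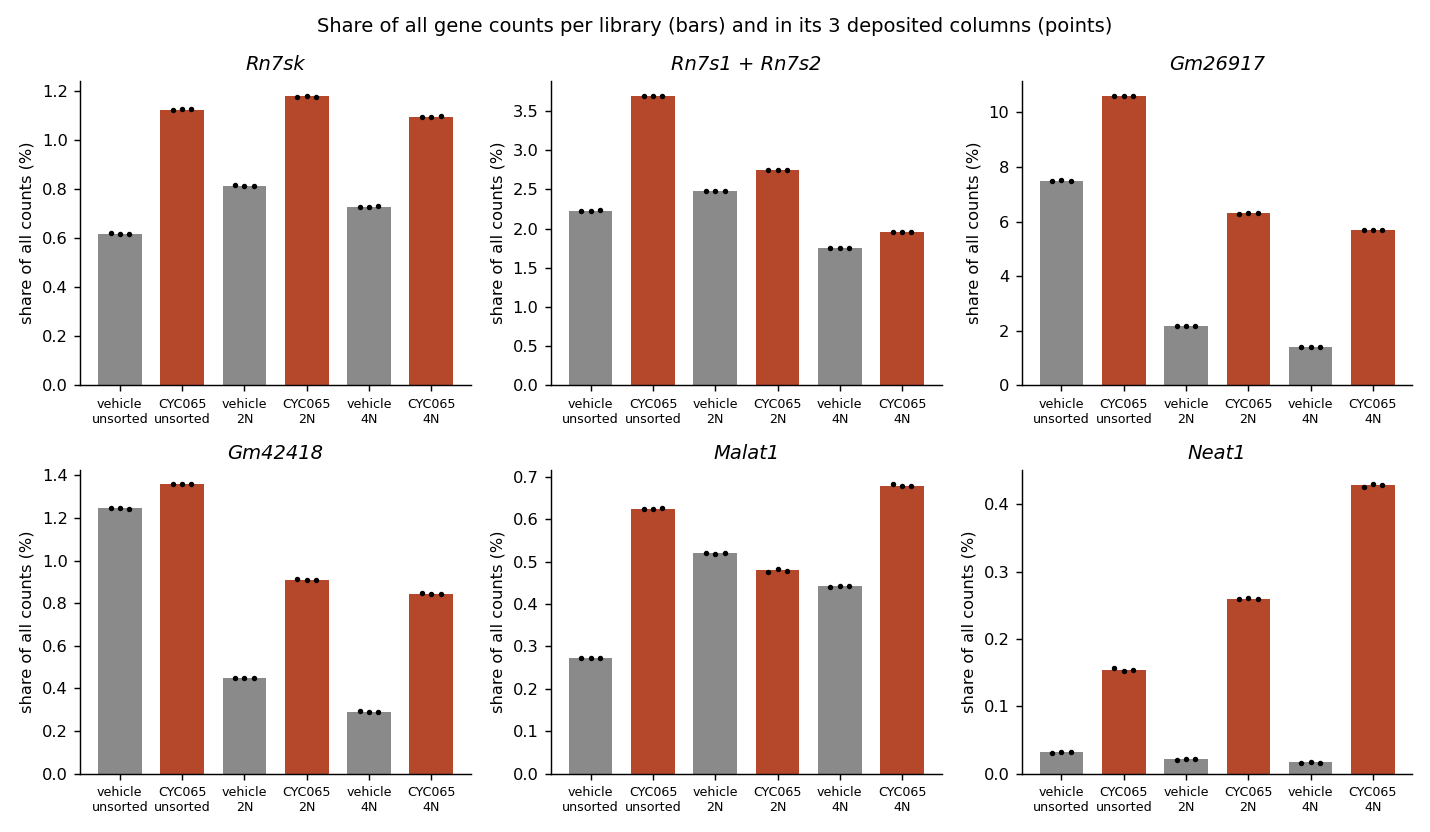
Share of all gene counts (percent, axes start at 0 and differ between panels) of each RNA, with *Rn7s1* and *Rn7s2* summed. Bars are the 6 libraries (grey vehicle, red CYC065) and points their 3 deposited columns. *Neat1* ran from 0.0167% in vehicle 4N to 0.428% in CYC065 4N cells.

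Differences are given as log2 of CPM scaled with the trimmed mean of M values (TMM). A log2 difference beyond 1 was counted, and its share among all measured genes is given beside it as the background. In CYC065 versus vehicle, 2 of the 7 (*Malat1* and *Neat1*) lay beyond 1 in unsorted cells, where 25.6% of 14076 genes did. In 2N cells 2 of the 7 (*Gm26917* and *Neat1*) did, with 28.1% of 14083 genes. In 4N cells 3 of the 7 (*Gm26917*, *Gm42418* and *Neat1*) did, with 25.5% of 14177 genes. Among genes averaging at least 1000 counts, the shares beyond 1 were 18.6%, 19.8% and 15.9% in unsorted, 2N and 4N cells. The 7 were selected on their differences, so their counts beside these shares are a description only. All 7 differences beyond 1 were upward. *Neat1* is among them in each pair and *Gm26917* in both 2N and 4N cells, so they are not separate genes. By direction, 11.7%, 14.9% and 14.1% of all measured genes were beyond 1 upward with CYC065 in unsorted, 2N and 4N cells, and 13.9%, 13.3% and 11.4% downward. The lists of partner genes below are to be read against these shares. In 4N versus 2N cells, 0 of the 7 lay beyond 1 with either treatment, where 2.67% of 13358 genes did with vehicle and 3.57% of 14173 with CYC065. In unsorted cells versus the mean of the sorted populations, 2 of the 7 (*Gm26917* and *Gm42418*) lay beyond 1 with vehicle (10.7% of 13805 genes) and 1 of the 7 (*Gm26917*) with CYC065 (6.69% of 14386 genes).

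**Figure D2:**
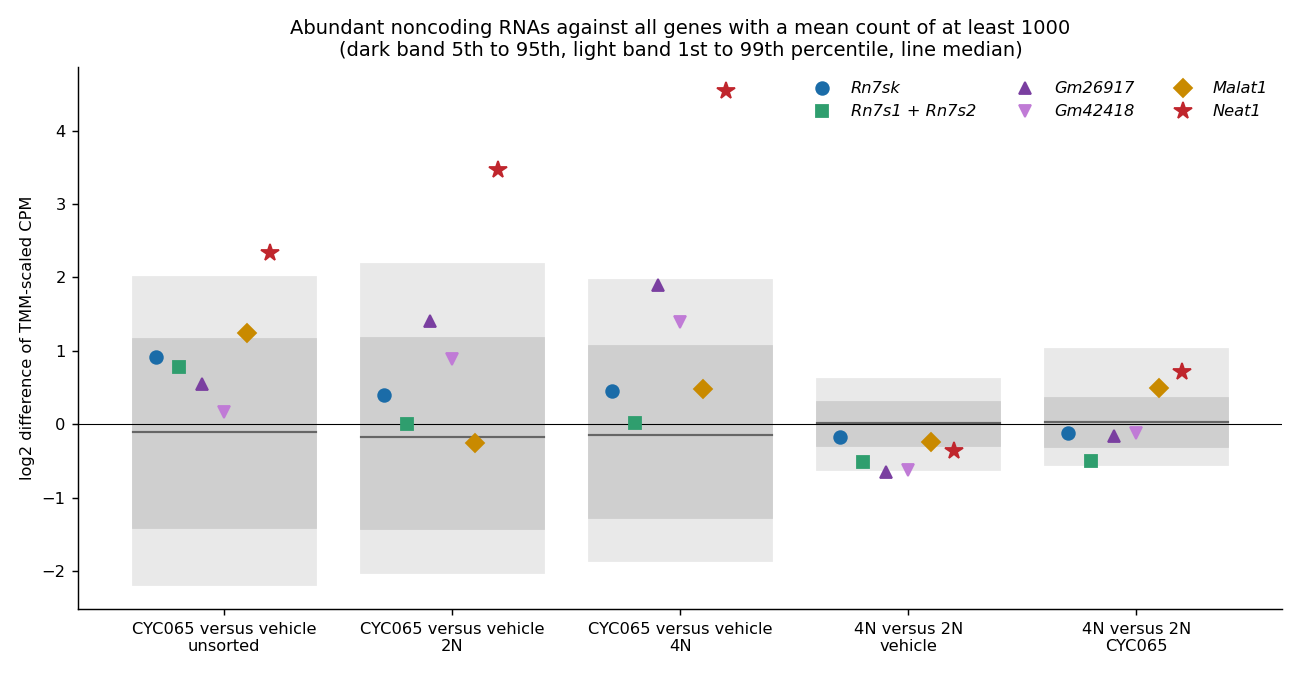
Log2 differences of TMM-scaled CPM of the noncoding RNAs (symbols) in 5 comparisons, over the spread of 7775 genes averaging at least 1000 counts (dark band 5th to 95th percentile, light band 1st to 99th percentile, line median). *Neat1* lies above the 99th percentile in all 3 comparisons of CYC065 with vehicle, and the 7SL sum lies at 0.01 in 2N and 0.02 in 4N cells.

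7SK RNA was more abundant with CYC065 in each of the 3 pairs. *Rn7sk* held 0.616% of counts in vehicle unsorted (95% counting interval 0.614 to 0.618%), 1.12% in CYC065 unsorted, 0.814% and 0.728% in vehicle-treated 2N and 4N cells, and 1.18% and 1.10% in their CYC065-treated counterparts. The 3 CYC065 libraries all lay above the 3 vehicle libraries. On the TMM scale, *Rn7sk* was higher with CYC065 by 0.91 in unsorted, 0.39 in 2N and 0.45 in 4N cells, between 1.31-fold and 1.89-fold. Among 7774 or 7775 genes averaging at least 1000 counts, 641, 1628 and 1427 had a larger difference. In 4N relative to 2N cells, *Rn7sk* had a log2 difference of -0.17 with vehicle and -0.12 with CYC065. The 4N and 2N libraries thus differed less in its level than the treatments did. Its highest and lowest CPM differed 1.89-fold, the smallest range among the 7.

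The genes whose levels followed *Rn7sk* most closely over the 6 libraries were *Tmem64*, *Lnpep*, which encodes a membrane aminopeptidase, and *Adam15*, which encodes a membrane metalloprotease. The root mean square difference of their centred log2 CPM from that of *Rn7sk* was 0.0416, 0.0474 and 0.0539 among 7768 candidates.

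Of the 7 protein genes of the 7SK particle and P-TEFb, 1 was beyond 1 upward in unsorted cells, 2 in 2N cells and 1 in 4N cells, and 0 were beyond 1 downward. Of all measured genes, 11.7%, 14.9% and 14.1% were beyond 1 upward. The median log2 difference of the list was 0.23, 0.40 and 0.51, beside -0.07, -0.07 and -0.03 for all measured genes. *Hexim2*, an inhibitor of P-TEFb, held 122 counts in vehicle unsorted, 322 in CYC065 unsorted, 89 and 299 in 2N cells with vehicle and CYC065, and 82 and 315 in 4N cells. Its log2 differences were 1.46, 1.69 and 1.73, at low counts.

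*Hexim1*, which encodes the related inhibitor, was higher with CYC065 by 0.43 in unsorted, 1.01 in 2N and 0.81 in 4N cells. It was lower in 4N than in 2N cells with both treatments, by log2 differences of -0.56 and -0.76. *Larp7*, which holds the 3′ end of 7SK RNA, went the other way, with -0.86, -0.49 and -0.37. *Cdk9*, the kinase itself, had 0.17, 0.16 and -0.20. The cyclins *Ccnt1* and *Ccnt2* had positive differences in all 3 pairs, from 0.23 to 0.51 and from 0.42 to 0.63. *Mepce*, which caps 7SK RNA, had -0.08, 0.33 and -0.01.

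7SL RNA differed with treatment in unsorted cells and between 4N and 2N in sorted cells. Summed over *Rn7s1* and *Rn7s2*, it held 2.23% of counts in vehicle unsorted (95% counting interval 2.23 to 2.23%), 3.70% in CYC065 unsorted, 2.48% and 1.75% in vehicle-treated 2N and 4N cells, and 2.75% and 1.96% in their CYC065-treated counterparts. The highest library was CYC065 unsorted, and both 4N libraries were the lowest. On the TMM scale the sum was 1.71-fold higher with CYC065 in unsorted cells (log2 0.78). In sorted cells the difference was 0.01 in 2N and 0.02 in 4N cells, and with DESeq2 size factors the latter was -0.000916.

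Between 4N and 2N cells the sum had a log2 difference of -0.51 with vehicle and -0.50 with CYC065, a 1.43-fold and a 1.42-fold lower level. Of 7775 well-counted genes, 105 and 118 had a smaller value. The difference between these 2 values was 0.01. 7SL RNA thus stood among the lowest of the abundant transcripts in 4N relative to 2N cells with either treatment, while 7SK RNA, made by the same polymerase, had -0.17 and -0.12. The ratio of 7SL to 7SK counts, which needs no scaling, was 3.62 in vehicle unsorted, 3.29 in CYC065 unsorted, 3.05 and 2.40 in vehicle-treated 2N and 4N cells, and 2.33 and 1.79 in their CYC065-treated counterparts. It was lower in the CYC065 library of each pair and lower in 4N than in 2N cells.

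The split of 7SL counts between the identical genes varied within a library. The ratio of *Rn7s2* to *Rn7s1* ran from 1.36 to 1.77 over the 3 columns of vehicle unsorted cells and from 1.55 to 1.92 in CYC065 4N cells. Counts of *Rn7s1* spread over 0.727 to 15.9% of their mean within a library, and those of *Rn7s2* over 0.359 to 10.6%. The sum spread over only 0.161 to 0.342%. The other 11 genes that share 50-base stretches with the pair held 63.2 to 125 counts together, and only 2 or 3 of them were above 0 in a library.

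**Figure D3:**
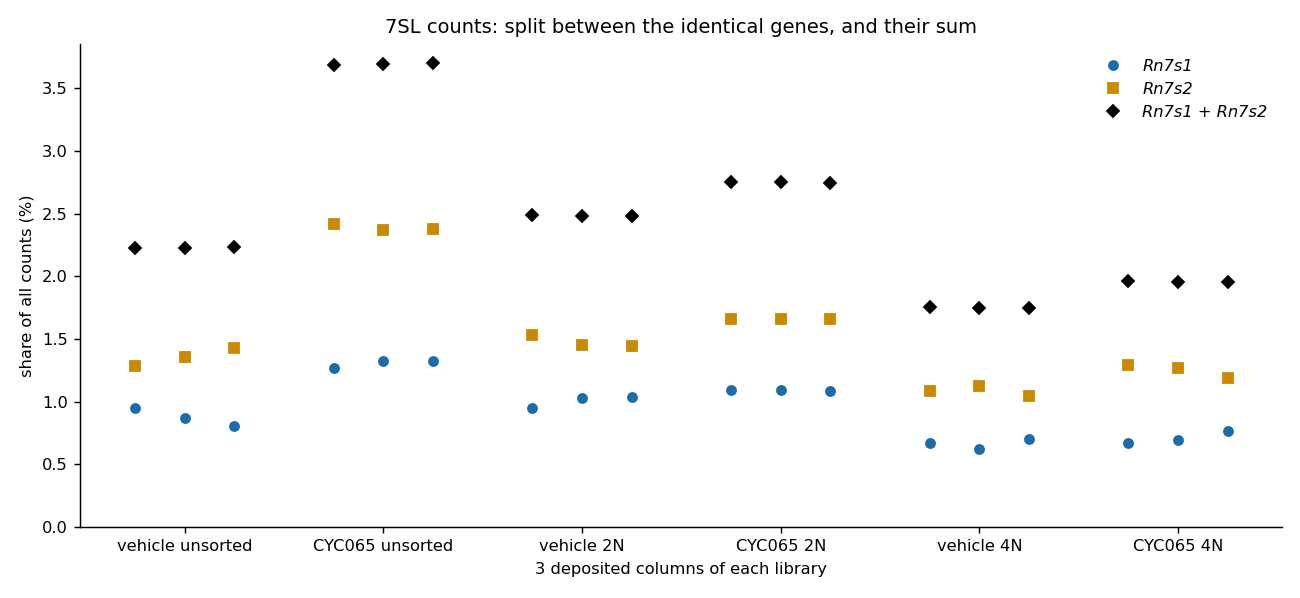
Share of all gene counts (percent, axis from 0) given to *Rn7s1*, *Rn7s2* and their sum in the 3 deposited columns of each library. The symbols of single genes scatter within a library, with *Rn7s1* from 0.807 to 0.946% in vehicle unsorted cells, while the sum stays level.

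The summed 7SL pattern was followed most closely by *Notch1*, a cell surface receptor gene, with a root mean square difference of 0.0761, then by *Tmem119* (0.123) and *Ank* (0.132). In 4N relative to 2N cells, *Notch1* had -0.58 with vehicle and -0.45 with CYC065. It was picked for its likeness over these same libraries, so these values are part of that choice.

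The genes of the SRP and SRP receptor proteins stayed near the background of all genes. Of 10 genes, 0 were beyond 1 upward in any pair of CYC065 with vehicle, while 1, 1 and 2 were beyond 1 downward in unsorted, 2N and 4N cells, where 13.9%, 13.3% and 11.4% of all measured genes were. The median log2 difference was -0.17, -0.14 and -0.19, beside -0.07, -0.07 and -0.03 for all genes. *Srprb*, the membrane-anchored subunit of the receptor, had -0.53, -1.05 and -1.11, and *Srpr*, the other subunit, -0.71, -0.63 and -0.88. *Srp54b* had -1.44, -0.67 and -2.09, but *Srp54a*, *Srp54b* and *Srp54c* are near-identical copies of the GTPase gene, and the split of reads among them is uncertain. *Srp72* and *Srp68*, which bind 7SL RNA together, stayed between -0.21 and 0.11.

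Genes of RNA polymerase III, which makes both short RNAs, and of its various factors had lower medians with CYC065 than all measured genes. Of 28 genes of RNA polymerase III and its factors, 7, 5 and 5 were beyond 1 downward and 1, 2 and 1 upward in unsorted, 2N and 4N cells. The shares over all genes were 13.9%, 13.3% and 11.4% downward and 11.7%, 14.9% and 14.1% upward, so the counts in 2N and 4N cells were close to the background downward. The median of the list was -0.62, -0.61 and -0.46, beside -0.07, -0.07 and -0.03 for all genes. *Gtf3c6*, a subunit of the factor TFIIIC, had -1.93, -1.71 and -1.73, and *Snapc5*, of the complex that acts at the 7SK promoter, -2.86, -1.49 and -1.52. *Polr3gl*, an alternative subunit of the polymerase, was higher by 2.07, 1.77 and 1.60, whereas its counterpart *Polr3g* held 954 and 423 counts in vehicle and CYC065 unsorted cells. *Maf1*, the repressor of the polymerase, had 0.09, 1.10 and 0.96. *Polr3d* and *Crcp*, which encode subunits of the polymerase, had negative differences in all 3 pairs, from -1.25 to -0.78.

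**Figure D4:**
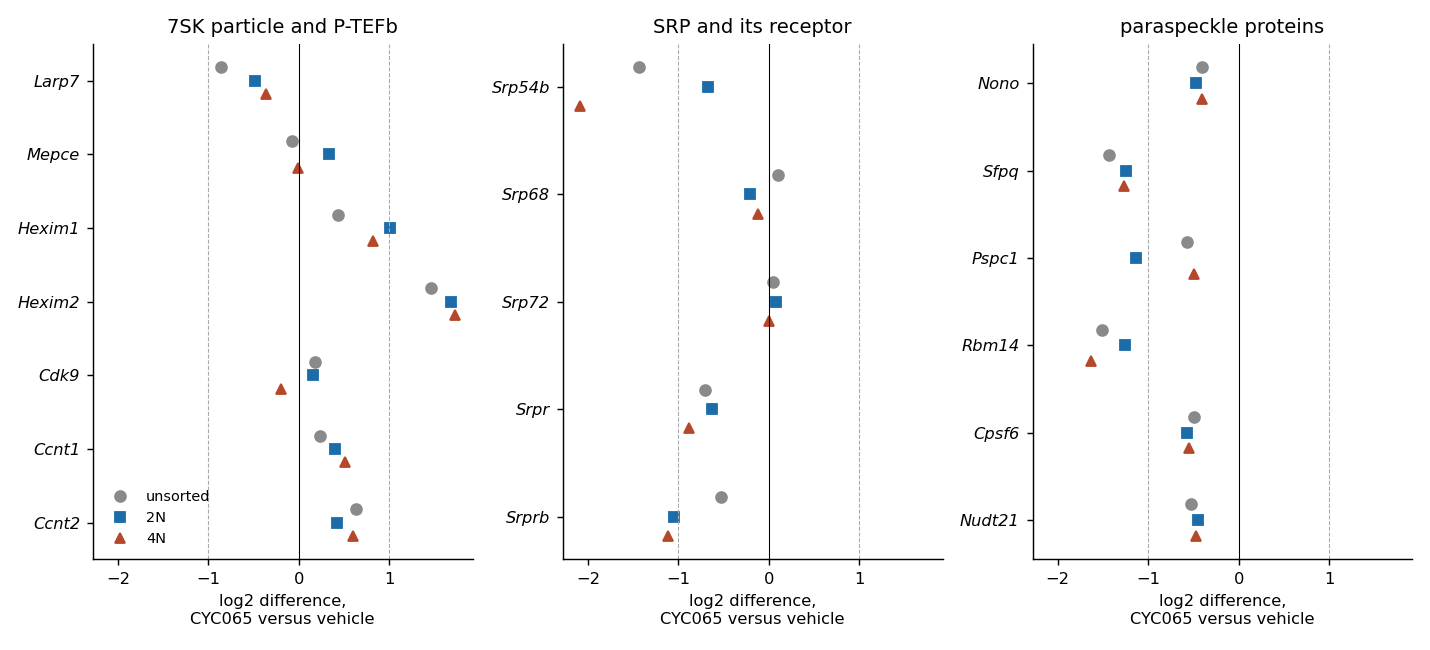
Log2 difference of TMM-scaled CPM between CYC065 and vehicle (horizontal axis) for named protein genes of the 7SK particle and P-TEFb, of SRP and its receptor, and of paraspeckles, in unsorted (circles), 2N (squares) and 4N cells (triangles). Dashed lines mark -1 and 1. *Hexim2* lies beyond 1 in all 3, and the 6 paraspeckle genes drawn lie below 0.

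Many other small structured RNAs were lower in unsorted than in sorted cells, whereas 7SK RNA, 7SL RNA, *Rpph1*, *Rmrp* and *Terc* were not beyond 1 in either direction. Of 20 distinct rows of that list (27 rows, some with identical counts), 11 of 15 measured were beyond 1 downward in unsorted relative to sorted vehicle cells and 12 of 17 in CYC065 cells. Of all genes, 3.43% and 3.34% were beyond 1 downward. The list medians were -2.39 and -1.74. *Rn7sk* had -0.32 with vehicle and 0.17 with CYC065, and the latter was -0.02 when only library size was used. The 7SL sum had 0.07 and 0.84. *Rpph1* had 0.08 and 0.71, *Terc* 0.52 and 0.15, and the larger of 2 *Rmrp* rows -0.57 and -0.25. *Rnu12*, a spliceosomal RNA, had -3.86 and -2.80, and *Rnu1a1*, a U1 gene of a multicopy family, -2.70 and -2.05. *Snord17*, a small nucleolar RNA, had -3.26 and -1.58, and of 20 small nucleolar and Cajal body RNAs 15 and 7 were beyond 1 downward. The part of staining, sorting or RNA recovery in these values was not tested.

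Among the longer structured RNAs made by RNA polymerase III, *Rpph1*, the RNase P RNA, had 1.14, 0.61 and 0.37 with CYC065 in unsorted, 2N and 4N cells. The larger *Rmrp* row, the RNA of RNase MRP, had 0.37, 0.13 and -0.03. *Terc*, the telomerase RNA made by RNA polymerase II, had 0.79, 1.06 and 1.25. Of the whole list, 5 of 12, 4 of 16 and 5 of 17 measured rows were beyond 1 upward with CYC065 and 0 downward, where 11.7%, 14.9% and 14.1% of all genes were beyond 1 upward. Rows of the U3 genes share identical counts, so the values of single U3 copies are uncertain.

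The RNAs of the ribosomal RNA-like locus made up most of the share of the 7 in unsorted cells and in CYC065-treated sorted cells. They were higher with CYC065 in each pair. *Gm26917* (chr17:39843013-39846341, plus strand, exonic over 3329 bases) held 7.49% of counts in vehicle unsorted (95% counting interval 7.49 to 7.50%), 10.6% in CYC065 unsorted, 2.17% and 1.39% in vehicle-treated 2N and 4N cells, and 6.30% and 5.69% in their CYC065-treated counterparts. *Gm42418* (chr17:39846958-39848788, plus strand, 1831 bases) held 1.24%, 1.36%, 0.448%, 0.292%, 0.911% and 0.845% in the same order. Both had the same order of libraries, with unsorted cells above sorted cells of the same treatment and 2N above 4N cells.

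Per the RefSeq annotation of mm10, *Rn18s-rs5*, an 18S ribosomal RNA gene, spans chr17:39846354-39848202. *Gm26917* ends 12 bases before it, and *Gm42418* overlaps it by 1245 bases. Neither shared a 50-base stretch with another GENCODE gene (0%) on the transcript strand, and the opposite strand was not searched. *CT010467.1*, annotated as a ribosomal RNA gene on the opposite strand of *Gm42418*, held 555 to 2507 counts. The strand setting of the counting is not given in the sources used here, so reads of overlapping genes on opposite strands cannot be told apart.

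With CYC065, *Gm26917* was higher by 0.55 in unsorted, 1.40 in 2N and 1.89 in 4N cells, or 1.47-fold, 2.64-fold and 3.72-fold. *Gm42418* was higher by 0.17, 0.89 and 1.39. In 4N versus 2N cells, the pair summed to -0.65 with vehicle, where 70 of 7775 well-counted genes had a smaller value, and to -0.16 with CYC065. In unsorted versus sorted cells, *Gm26917* was 4.21-fold higher with vehicle and 2.02-fold higher with CYC065, and the sum of both 4.07-fold and 1.99-fold. The highest and lowest libraries differed 7.94-fold for *Gm26917* and 4.83-fold for *Gm42418*.

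The ratio of *Gm26917* to *Gm42418* counts was 6.02 in vehicle unsorted, 7.82 in CYC065 unsorted, 4.85 and 4.75 in vehicle-treated 2N and 4N cells, and 6.92 and 6.73 in their CYC065-treated counterparts. It was higher in the CYC065 library of each pair. The widest spread over the 3 columns of a library was 4.73 to 4.79, in vehicle 4N cells. The columns carry counting noise of 1 library and do not show whether the ratio differs with treatment. Columns of *Gm26917* in vehicle unsorted cells nevertheless differed by 0.964% of their mean, a chi-square per degree of freedom of 39.6.

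Because ribosomal RNA was depleted before sequencing, a difference in these RNAs between libraries and a difference in how completely ribosomal RNA was removed cannot be told apart. Other values moved with them in part. Mitochondrially encoded genes held 1.04% and 1.69% of counts in unsorted vehicle and CYC065 cells, 0.380% and 0.614% in vehicle 2N and 4N cells, and 0.701% and 0.793% in CYC065 2N and 4N cells. Like the pair, this share was higher with CYC065 and in unsorted cells, but it was higher in 4N than in 2N cells, where the pair was lower. Of 3 measured ribosomal RNA genes beside the pair, 0, 2 and 1 were beyond 1 upward with CYC065 in unsorted, 2N and 4N cells. *CT010467.1* had 0.67, 1.15 and 1.71. Nuclear genes annotated as ribosomal RNA held 0.000926 to 0.00429%, lowest in vehicle 4N and highest in CYC065 unsorted cells. Nearly all of these counts were those of *CT010467.1*, so this share is not a separate observation. *mt-Rnr1*, the mitochondrial 12S ribosomal RNA, held 304 CPM in vehicle 4N cells at its lowest and 587 CPM in CYC065 unsorted cells at its highest. *mt-Rnr2*, the 16S RNA, was highest in CYC065 2N cells at 504 CPM and was lower in unsorted than in sorted cells, by -0.51 with vehicle and -1.32 with CYC065. The part of these in the result was not tested.

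Genes of RNA polymerase I and its factors had lower medians with CYC065 than all measured genes. Of 15 genes, 3, 4 and 5 were beyond 1 downward and 0 upward, where 13.9%, 13.3% and 11.4% of all genes were beyond 1 downward. The medians were -0.62, -0.73 and -0.78, beside -0.07, -0.07 and -0.03 for all genes. *Cd3eap*, a subunit gene of the polymerase, held 1324 counts in vehicle unsorted and 215 in CYC065 unsorted, 2267 and 323 in 2N, and 2276 and 315 in 4N cells. Its log2 differences were -2.56, -2.87 and -3.06. *Polr1b*, the second-largest subunit, had -1.19, -1.42 and -1.41, *Polr1a*, the largest, -0.93, -1.16 and -1.11, and *Polr1e* -1.27, -1.41 and -1.14. *Ubtf*, the factor that binds ribosomal DNA, had -0.78, -0.77 and -0.53.

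The genes closest to *Gm26917* over the 6 libraries were *Steap3*, a metalloreductase gene, *Rsrp1* and the noncoding *Dnm3os*, with root mean square differences of 0.268, 0.279 and 0.281. Those closest to *Gm42418* were *Ephb2*, an ephrin receptor gene (0.198), *Kif26b* (0.207) and *Gm37494* (0.216). These were larger than those of *Rn7sk* and its nearest genes.

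*Neat1* was the RNA that differed most between vehicle and CYC065. It held 0.0318% of counts in vehicle unsorted (95% counting interval 0.0313 to 0.0323%), 0.155% in CYC065 unsorted, 0.0213% and 0.0167% in vehicle-treated 2N and 4N cells, and 0.260% and 0.428% in their CYC065-treated counterparts. The 3 CYC065 libraries were all above the 3 vehicle libraries. By count it ranked 424th, 888th and 1246th among all genes in vehicle unsorted, 2N and 4N cells and 37th, 16th and 10th in the CYC065 libraries. *Neat1* was 5.03-fold higher with CYC065 in unsorted cells (log2 2.33, 95% counting interval 2.31 to 2.35), 11.1-fold higher in 2N cells (3.47) and 23.2-fold higher in 4N cells (4.53, 4.51 to 4.56). Of the 7775 well-counted genes, 46, 9 and 1 had a larger difference. The 1 gene above it in 4N cells was *Trp53inp1*, a p53-induced stress gene, at 5.15, named after its value was seen, with 81 and 3348 counts in vehicle and CYC065 4N cells. An immune marker moved the same way. *Cd68*, a lysosomal protein gene used as a macrophage marker, held 194 to 233 counts in vehicle and 598 to 1389 in CYC065 libraries, while *Ptprc*, the defining leukocyte marker, was at 0 in 5 libraries and at 1 count in CYC065 4N cells.

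In 4N relative to 2N cells, *Neat1* was lower with vehicle (-0.36) and higher with CYC065 (0.71), where 134 of 7775 genes had a larger value. The order of its levels was CYC065 4N, CYC065 2N, CYC065 unsorted, vehicle unsorted, vehicle 2N and vehicle 4N. Unsorted cells lay outside the range of the sorted populations with both treatments, at 0.74 above their mean with vehicle and -0.96 relative to it with CYC065.

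*Malat1* showed no such order. It held 0.273% of counts in vehicle unsorted (95% counting interval 0.272 to 0.275%), 0.625% in CYC065 unsorted, 0.519% and 0.442% in vehicle-treated 2N and 4N cells, and 0.479% and 0.679% in their CYC065-treated counterparts. Vehicle and CYC065 libraries overlapped. It was higher with CYC065 by 1.24 in unsorted and 0.48 in 4N cells and lower in 2N cells at -0.25. In 4N versus 2N cells it had -0.24 with vehicle and 0.49 with CYC065, where 239 of 7775 genes had a larger value. Both neighbouring RNAs were therefore lower in 4N than in 2N cells with vehicle and higher with CYC065. The ratio of 4N to 2N differed between the treatments by 0.73 for *Malat1* and 1.07 for *Neat1*, by 0.49 for *Gm26917* and *Gm42418* summed, and by 0.05 for *Rn7sk*.

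**Figure D5:**
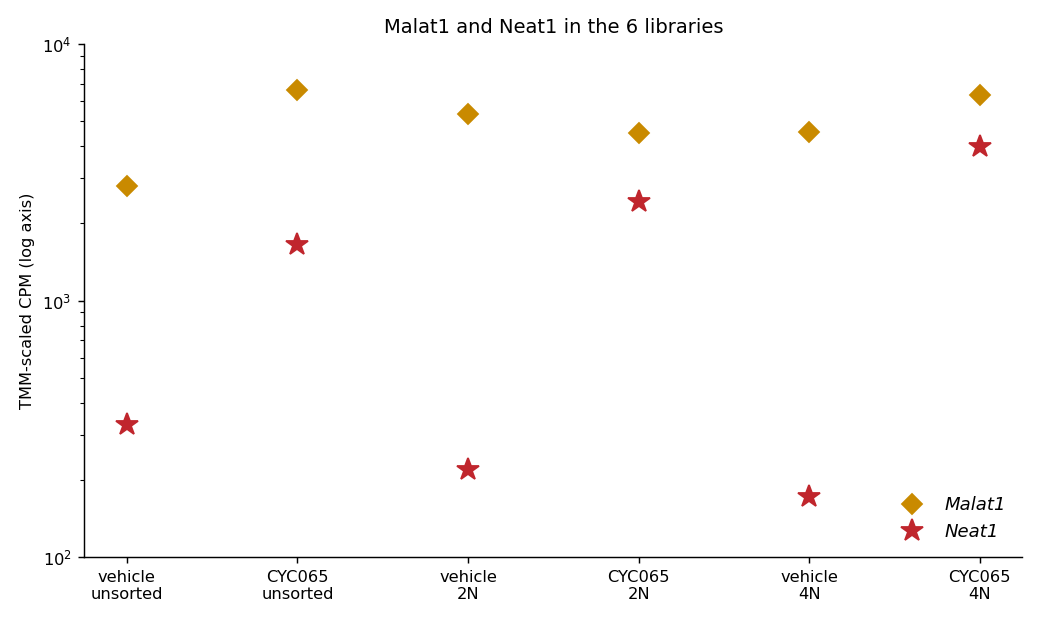
TMM-scaled CPM (log axis) of *Malat1* (diamonds) and *Neat1* (stars) in the 6 libraries. *Malat1* stays between 2808 and 6635 CPM, while *Neat1* lies between 171 and 327 CPM in vehicle and between 1642 and 3974 CPM in CYC065 libraries.

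The counts of *Malat1* exceeded those of *Neat1* 8.60-fold in vehicle unsorted, 24.4-fold in vehicle 2N and 26.4-fold in vehicle 4N cells. They exceeded them 4.04-fold in CYC065 unsorted, 1.85-fold in CYC065 2N and 1.59-fold in CYC065 4N cells. Per base of exonic length, the excess was 25.6-fold, 72.5-fold and 78.5-fold with vehicle and 12.0-fold, 5.49-fold and 4.72-fold with CYC065. *Neat1* has a short and a long isoform that share the 5′ part, and a gene count does not separate them.

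Paraspeckle protein genes had negative log2 differences with CYC065, while *Neat1* was higher. All 10 were below 0 in all 3 pairs. Of the 10, 3, 4 and 2 were beyond 1 downward and 0 upward in unsorted, 2N and 4N cells, where 13.9%, 13.3% and 11.4% of all genes were beyond 1 downward. The medians were -0.73, -0.84 and -0.53, beside -0.07, -0.07 and -0.03 for all genes. *Sfpq*, which is needed for paraspeckles to form, held 20198 counts in vehicle unsorted, 7174 in CYC065 unsorted, 19356 and 8482 in 2N cells with vehicle and CYC065, and 20840 and 9957 in 4N cells. Its log2 differences were -1.44, -1.25 and -1.27. *Rbm14* had -1.51, -1.26 and -1.64. *Nono*, the partner of Sfpq, had -0.41, -0.48 and -0.41. *Pspc1* had -0.58, -1.14 and -0.49. *Cpsf6* and *Nudt21*, which favour the short isoform of *Neat1* by directing its early polyadenylation, had -0.57 to -0.50 and -0.53 to -0.45.

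Genes beside *Malat1* and *Neat1* on chromosome 19 did not follow them. Of 9 neighbours, 0 were beyond 1 upward in any pair of CYC065 with vehicle, and 2 were beyond 1 downward in each, where 13.9%, 13.3% and 11.4% of all genes were. These were *Pola2*, a subunit gene of DNA polymerase α (-2.18, -2.10 and -1.52), and *Ehbp1l1* (-1.24, -1.87 and -1.86). *Frmd8*, which lies beside *Neat1*, had -0.52, -0.30 and -0.09.

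Of 7 other measured nuclear long noncoding RNAs, 1 was beyond 1 upward in unsorted cells (*Airn*, 1.58) and 1 downward in 2N cells (*Dleu2*, -1.20), and 0 in 4N cells. *Tug1* had -0.02, -0.02 and 0.13. Of the host genes of small nucleolar RNAs, 1 of 13 was beyond 1 downward in unsorted cells (*Snhg3*, -1.19), and 3 of 14 and 2 of 14 were beyond 1 upward in 2N and 4N cells, among them *Snhg10* (1.23) and *Snhg18* (1.12). These counts were near the shares over all genes, 13.9% downward in unsorted cells and 14.9% and 14.1% upward in 2N and 4N cells.

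The genes nearest to *Neat1* over the 6 libraries were *Acot2*, a mitochondrial thioesterase gene, *Cebpd*, a transcription factor gene, and *Hid1*, with root mean square differences of 0.504, 0.565 and 0.608. Those nearest to *Malat1* were *Slc4a7*, a bicarbonate transporter gene (0.124), *Arhgef28* (0.128) and *Fgfrl1* (0.152). *Cebpd* held 540 and 5515 counts in 2N cells with vehicle and CYC065, and its log2 difference was 3.29, but had 0.02 in 4N versus 2N CYC065-treated cells, where *Neat1* had 0.71.

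The order of abundance among the RNAs can be read only per length. Of the 7SL genes, *Rn7s2* alone was given 37083 to 84586 CPM per kilobase, so the sum of the pair lay above that. *Rn7sk* had 19133 to 36068 CPM per kilobase, *Gm26917* 4265 to 33874 and *Gm42418* 1631 to 7877. *Malat1* had 402 to 950 CPM per kilobase and *Neat1* 8.26 to 191. Very short RNAs are recovered differently from long ones in fragmented libraries, so the distance between the structured RNAs and the long ones is approximate.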

How the data were processed

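The members and gene lists were chosen with earlier results of these data known. Total RNA was depleted of ribosomal RNA by the authors, made into stranded random-primed libraries and sequenced paired-end. The deposited values are expected counts per gene, estimated by the authors with RSEM 1.3.1 after bcl2fastq 2.17, Cutadapt 1.18 and STAR 2.7.0f (per the submitters' processing notes) against mm10 with GENCODE M21, and 9.66% of genes held a fractional value. The strand setting is not given in the sources used here. RSEM divides multi-mapping reads among genes, which affects repeated RNAs.

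Here, 3 columns per condition were summed into 1 library. The 6 libraries were scaled by TMM in edgeR 4.0.16 (R 4.3.3), with DESeq2 1.42.0 size factors as an alternative. A gene was measured where 1 compared library held at least 30 counts, and a prior count of 0.5 was added. With 1 library per condition, no test was made. Intervals are Clopper-Pearson 95% intervals and cover counting error only. Named from each list were up to 4 genes with the largest differences beyond 1 and at least 100 counts in 1 library, or else the gene with the most counts, with 3 most alike genes per RNA. Other list members are named for their role and were chosen after their values were seen. Likeness used genes averaging at least 1000 counts and the root mean square of centred log2 differences. The rest ran in Python 3.11.15 with pandas 2.3.3 and SciPy 1.17.1. Some list genes and 1 sequence are not reported here. Sequences were read from the GENCODE transcripts, and scripts were tested on simulated data.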

Additional observations from a re-analysis of the deposited data

Results flagged for a closer look

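*Malat1* and *Neat1* had opposite directions under the same contrast in different cells or treatments. None of these differences between contrasts was tested, since each condition was counted as 1 library. *Malat1* in CYC065 versus vehicle had a log2 difference of 1.24 in unsorted, -0.25 in 2N and 0.48 in 4N cells. In 4N versus 2N cells, *Malat1* had -0.24 with vehicle and 0.49 with CYC065, and *Neat1* had -0.36 and 0.71. In unsorted versus sorted cells, *Malat1* had -0.81 with vehicle and 0.30 with CYC065, whereas *Neat1* had 0.74 and -0.96, so the neighbouring RNAs went opposite ways with both treatments.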

How the results depend on the processing

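Of 63 differences of the RNAs and their sums, 58 kept their direction under every alternative scaling, prior count and omission of a column. The other 5 were *Rn7s1* in CYC065 versus vehicle in 2N cells (-0.03, up to 0.20) and 4N cells (-0.04, up to 0.19), the 7SL sum in 4N cells (0.02, -0.000916 with DESeq2 size factors), *Rn7s1* in unsorted versus sorted vehicle cells (0.07, -0.0085 without replicate 1) and *Rn7sk* in unsorted versus sorted CYC065 cells (0.17, -0.02 by library size). Of 13 differences beyond 1, 12 stayed beyond it. The exception was *Gm26917* in unsorted versus sorted CYC065 cells (1.01), and 5 others crossed 1 under an alternative. Omitting a column moved no difference by more than 0.0885. With CYC065, *Neat1* ranged over 2.28 to 2.51, 3.47 to 3.69 and 4.51 to 4.77 in unsorted, 2N and 4N cells.

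The median of all genes moved by over 0.1 with library size alone (0.138 in 2N and 0.142 in 4N cells for CYC065 versus vehicle, -0.188 for unsorted versus sorted CYC065 cells), with upper quartile (0.179 in unsorted, 0.119 in 2N and 0.108 in 4N cells) and with the 7 RNAs left out of library size (0.224 in 2N and 0.237 in 4N cells). The setting without the 7 also used library size in place of TMM, so its shifts hold both changes. The share of called genes that were higher was 45.7% in unsorted cells against 58.7% with upper quartile. In 2N cells it was 52.9% against 62.8% with library size and 68.3% without the 7. It was 55.4% in 4N cells against 66.5% with library size and 73.0% without the 7, and 50.1% in unsorted versus sorted CYC065 cells against 28.7% with library size.

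With the 7 left out of the denominator, their share was 13.5%, 21.3%, 6.90%, 4.84%, 13.5% and 12.0% in vehicle unsorted, CYC065 unsorted, vehicle 2N, vehicle 4N, CYC065 2N and CYC065 4N cells. Without mitochondrial genes it was 12.0%, 17.9%, 6.48%, 4.64%, 12.0% and 10.8%. Without 1 replicate column it ran from 11.865 to 11.898%, 17.566 to 17.578%, 6.447 to 6.4583%, 4.6091 to 4.6161%, 11.87 to 11.892% and 10.686 to 10.695%.

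Without a filter on low counts, 10339, 11693 and 10858 genes lay beyond 1 in CYC065 versus vehicle unsorted, 2N and 4N cells, 5449 and 7176 in 4N versus 2N vehicle and CYC065 cells, and 7653 and 7538 in unsorted versus sorted vehicle and CYC065 cells. With at least 100 counts, the last 4 were 120, 214, 892 and 479. The main counts were 3604, 3961, 3619, 357, 506, 1472 and 962. Without 1 replicate column they ran over 3641 to 3662, 3992 to 4040, 3647 to 3708, 419 to 458, 579 to 584, 1537 to 1550 and 1019 to 1041.

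No paired analysis was possible because the replicate numbers mark parts of 1 library and no test was made. Culture-to-culture spread is unknown for every value.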
